A study of Caenorhabditis elegans with 24 samples.

Results

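Edited regions are stretches of RNA in which many adenosines are read as guanosines because they were deaminated to inosine. The deposited list of A-to-I editing in Caenorhabditis elegans holds 204 rows, and the 148 rows that give a chromosome and a start and end in the WS220 genome build were set against the TDP-1 ChIP-seq peaks of the same study. The other 56 rows give no coordinates and could not be placed. The 148 regions lie in 140 genes, and the list describes 84 as intronic, 46 as 3' UTR, 6 as 5' UTR, 9 as a mixture of intron and UTR and 3 as something else. Every row with coordinates was kept, so no peak or J2-IP value decided membership. The list itself rests on editing seen in sequenced RNA, and the study notes that many introns had too few reads to assess. The question was whether edited RNA and TDP-1 peaks fall on the same stretches of the genome more often than position and length alone would give.

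TDP-1 is the worm ortholog of TDP-43, a nuclear RNA-binding protein that prefers UG-rich RNA and has been linked to splicing and to neurodegeneration in humans. ADARs deaminate adenosines only within double-stranded RNA, and long duplexes, such as those formed when an intron or a 3' UTR holds a pair of inverted repeats, are edited at many positions at once. In the worm ADR-2 is the only ADAR with deaminase activity. ChIP recovers DNA crosslinked to a protein, and RNase treatment before the precipitation removes signal from protein held to chromatin through RNA.

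ChIP-seq was done on young adults at 20°C in 2 libraries, called replicate 1 and replicate 2 here, and in 1 library treated with RNase, called the RNase control. All 3 carry the strain label tdp-1(ok803), a deletion allele of the gene whose protein was immunoprecipitated. The labels thus name animals that should lack the target, and the study's description of the ChIP does not name a strain, so the peaks are described here as deposited. Editing was scored in total RNA of L4 larvae at 20°C from 3 libraries of wild type (N2), 3 of tdp-1(ok803) and 1 of adr-2(gv42), and a region was listed only where editing was seen in every replicate and not in adr-2(gv42). The regions and the peaks therefore come from different stages. A further assay, the J2-IP, recovered RNA with an antibody against double-stranded RNA from young adults at 15°C, in 3 wild-type and 3 tdp-1(ok803) libraries with 1 input library of each genotype. Whole animals were used throughout, so no tissue can be named.

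The replicates gave unequal numbers of peaks. Replicate 1 has 16028 peaks covering 20.3% of the chromosomes, replicate 2 has 3204 covering 3.04%, and the RNase control has 168 covering 0.114%. A replicate 1 peak was met by 71.3% of the replicate 2 peaks, while a replicate 2 peak was met by 12.7% of the replicate 1 peaks. By the study's rule a TDP-1 peak is found in both replicates and carries no RNase control peak, and 2546 intervals, called shared peaks here, met it here. The study's own total of TDP-1 peaks is larger than these files give under that rule, which was not resolved, so the shared peaks may not be its set. They cover 1.83% of the chromosomes.

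Of the 148 rows, 2 list spans that no intron or UTR could fill. The Y48G8a.15 3' UTR is listed at 11202111 bp and the egl-4 intron, whose ends are listed in reverse order, at 1686665 bp. Each meets all of the peak sets. Counts are given for all 148 regions first, and the remaining description is of the 146 regions of at most 20 kb. These 146 are between 44 and 8009 bp long (median 765.5 bp). They hold 7 to 447 potentially edited positions, called positions here (median 101, 1 region without a number). That number counts sites and does not measure how often each is edited. In 6 pairs the regions overlap each other, so the regions form 140 separate loci. The introns of spr-5 on chromosome I and pqn-80 on chromosome III are listed with the same start and end (12627523 to 12628444). At least 1 of them may thus be misplaced, and both were kept.

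A shared peak lay on few edited regions. With an overlap of at least 1 bp, 6 of the 148 regions met one, or 4.05% (95% Wilson interval 1.87 to 8.56%). If each region is moved to every possible position on its own chromosome, 5.16% of those placements meet a shared peak. Placements were not limited to transcribed DNA, whereas the listed regions were seen in RNA. Without the 2 oversized spans the count was 4 of 146, or 2.74% (1.07 to 6.83%), against 3.86% of placements on the chromosome and 3.65% of placements within 50 kb of the region. The observed share lay within its counting interval of both. The Wilson intervals cover counting error only, and the depth of the ChIP libraries is unknown.

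Replicate 2 alone gave the same picture. It met 10 of 148 regions (6.76%) against 6.91% of placements, and 8 of 146 (5.48%) against 5.63% on the chromosome and 5.19% nearby. Replicate 1 met 71 of 148 regions, or 48.0% (40.1 to 56.0%), against 35.1% of placements on the chromosome. Among the 146 regions it met 69, or 47.3% (39.3 to 55.3%), against 34.2% on the chromosome and 42.1% within 50 kb. The replicate 1 share was therefore above that of the chromosome as a whole, while its interval included that of the neighbourhood. The edited regions sit mostly towards the chromosome ends, with 70 in the left of 3 equal parts of a chromosome, 21 in the middle part and 55 in the right, and replicate 1 peaks cover 23.9%, 14.3% and 22.8% of the bases in those parts.

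**Figure D1:**
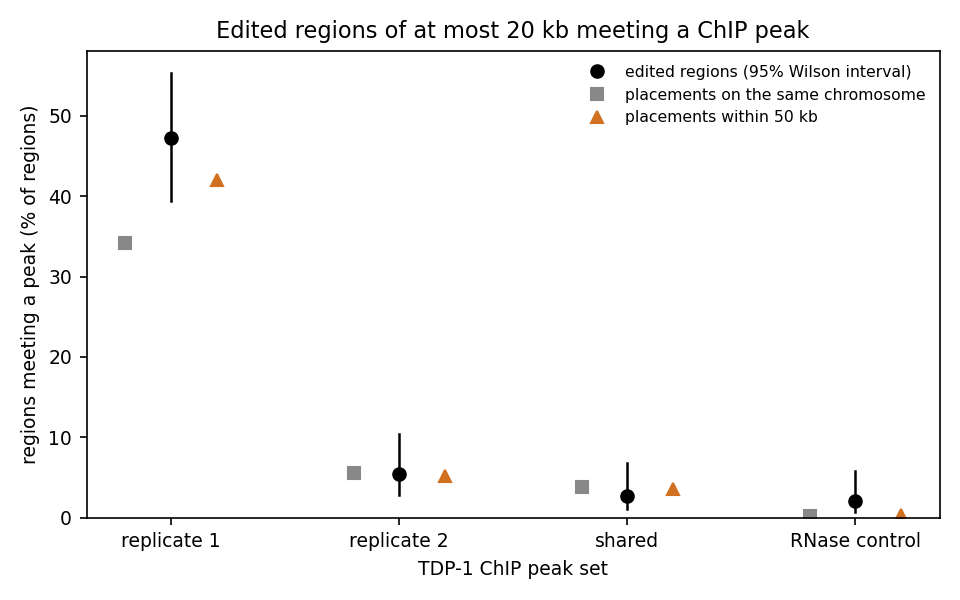
Share of the 146 edited regions of at most 20 kb that met a peak of each set by at least 1 bp (y axis, percent; dots with 95% Wilson intervals), beside the share of all placements of the same lengths on the same chromosome (squares) and within 50 kb (triangles). Replicate 1, at 47.3%, lies above the chromosome share of 34.2% with the 42.1% of local placements inside its interval, while replicate 2 and shared peaks lie close to both. The RNase control, at 2.05% on 3 regions, lies above both of its placement shares.

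The RNase control met 5 of 148 regions (3.38%) against 1.52% of placements. Among the 146 it met 3 (2.05%, 0.701 to 5.87%) against 0.252% on the chromosome and 0.359% nearby. Both of these placement shares lay below the interval, which rests on 3 regions. These 3 regions are 2 loci. The first is the gln-3 intron on chromosome IV from 16169190 to 16169391, 202 bp with 18 positions, in a glutamine synthetase gene. Its DNA lay wholly within a peak of score 3100 in each replicate and overlapped by 59 bp an RNase control peak of score 65.8. The second locus is a stretch on chromosome IV that is listed both as the 5' UTR of unc-43, the worm CaM kinase II, and as the 3' UTR of y43c5b.2. The unc-43 region runs from 10350687 to 10351570 with 183 positions, and all 884 bp lay in an RNase control peak of score 75.5. A replicate 1 peak of score 65.0 covered 427 bp of it and replicate 2 had no peak closer than 8495 bp. At both loci the signal called after RNase treatment was weak, below the median score of 118 for RNase control peaks.

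The 4 regions with a shared peak were 2 introns and 2 3' UTRs. The spsb-1 intron, in a gene for a SPRY and SOCS box protein, spans 8009 bp on chromosome II from 15209613 to 15217621 with 165 positions, and carried 5 shared intervals that together cover 5268 bp. It is the longest of the 146 regions, and every placement of that length within 50 kb met a replicate 1 peak. The m01h9.1 intron, 913 bp on chromosome IV from 4474476 to 4475388 with 201 positions, carried 2 shared intervals that reach 18 bp and 211 bp into it from either end. The elo-3 3' UTR, in a fatty acid elongase gene on chromosome IV from 7239933 to 7240038, has 106 bp and 7 positions and lay wholly within a shared peak, with a score of 283 in replicate 1 and 2016 in replicate 2. Only 5.61% of nearby placements of its length met a replicate 1 peak. The Y71F9al.12 3' UTR on chromosome I from 2869494 to 2870461, 968 bp with 32 positions, had 813 bp in a shared peak with scores of 1915 and 2609.

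Just outside the shared peaks lay the egl-8 intron (a phospholipase C beta gene, 21 bp away), the daf-16 intron (the FOXO transcription factor of insulin signalling, 233 bp), the F25H5.3 intron (315 bp), the y67d2.2 intron (324 bp) and the y39g10ar.11 3' UTR (425 bp). The median distance from a region to a shared peak was 25766 bp over the 146 regions and the median expected over all placements was 24176 bp. Within 1000 bp of a shared peak lay 11 regions (7.53%, against 6.97% of placements). Distance to shared peaks thus matched that of placements.

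Replicate 1 peaks showed a different arrangement: they lay beside the edited regions and reached in from the edges rather than covering their middles. The centre of a region was in a replicate 1 peak in 19 of 146 cases, or 13.0% (95% Wilson interval 8.49 to 19.4%). Over the chromosomes that carry the regions, 21.6% of bases are in such a peak, and at 5000 to 10000 bp from the same centres 28.8% are. Yet a replicate 1 peak lay on the region or within 1000 bp of it for 106 of the 146 (72.6%, 64.9 to 79.2%), against 51.6% of placements on the chromosome and 61.3% of placements within 50 kb. The centres were thus less often in a peak, and the flanks more often near one, than the same stretch of chromosome. Only 9 regions lay wholly within replicate 1 peaks and 60 lay partly within them. The study found inverted repeats or transposon sequence in almost all of its edited regions. How well reads can be aligned inside the regions could not be computed here. A stretch without a peak is therefore not shown to lack TDP-1, and the part of alignment in the dip was not tested.

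The dip was seen in introns. The centres of 6 of 83 intronic regions were in a replicate 1 peak (7.23%, 3.36 to 14.9%), against 21.7% of chromosome bases and 27.0% at 5000 to 10000 bp from the centre. For 3' UTR regions the count was 11 of 45 (24.4%, 14.2 to 38.7%), against 21.8% and 29.7%, both of which lie within its interval. The difference between introns and 3' UTRs was not itself tested. Of the 77 intronic regions with no peak at the centre, 20 had a replicate 1 peak on both sides no farther than 1000 bp beyond the edge, 35 on 1 side and 22 on neither.

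Cover by replicate 1 peaks fell from the edge inwards, and how far it fell in introns depended on the spsb-1 region. For introns other than spsb-1 it was 31.6% of bases at 100 to 200 bp outside the edge, 29.2% in the 100 bp outside it, 22.6% in the first 100 bp inside, 15.9% at 100 to 200 bp, 9.64% at 200 to 400 bp and 4.35% deeper than 400 bp, where 43 introns have bases. With spsb-1 the deepest value was 17.5%. For 3' UTRs cover fell from 32.3% just outside the edge to 21.4% at 200 to 400 bp inside and 16.4% deeper than that, where only 15 regions have bases. The dip at the centres also grew with length and with the number of positions. The centre lay in a peak in 10 of 39 regions shorter than 500 bp (25.6%), 6 of 56 regions of 500 to 1000 bp (10.7%) and 3 of 51 longer regions (5.88%), and in 10 of 34 regions with under 50 positions (29.4%) against 5 of 75 with 100 or more (6.67%). Length and the number of positions go together, and their shares in this were not tested.

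**Figure D2:**
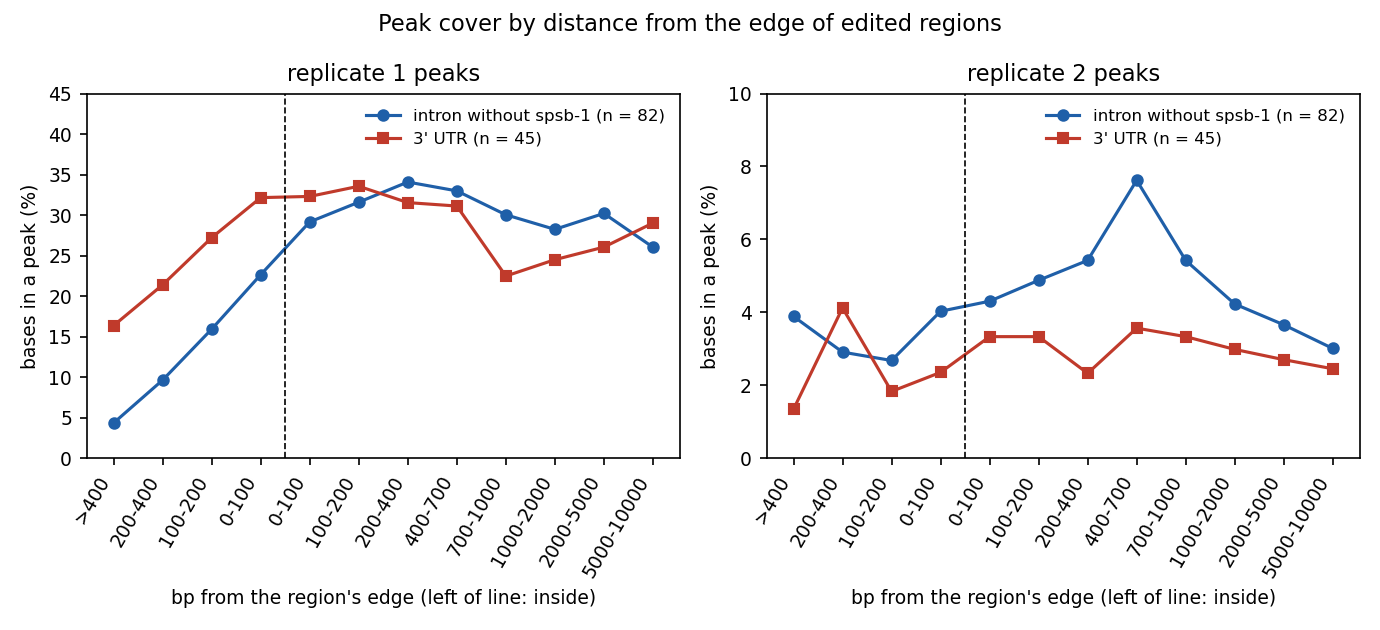
Share of bases in a replicate 1 peak (left) or replicate 2 peak (right) by distance from the nearest edge of an edited region (x axis, bp in unequal steps; left of the dashed line is inside the region), for 82 introns without spsb-1 (circles) and 45 3' UTRs (squares). Replicate 1 cover of introns fell from 29.2% in the 100 bp outside the edge to 4.35% deeper than 400 bp inside; replicate 2 cover stayed below 8% at every distance.

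Replicate 2 did not show the dip at the centres. Its peaks held those of 7 of 146 regions, or 4.79% (2.34 to 9.57%), with 3.13% of chromosome bases in a replicate 2 peak. From the edges of introns other than spsb-1, its cover was 2.68 to 4.03% in the 4 steps inside, 4.30 to 7.62% in the first 1000 bp outside and 3.01% at 5000 to 10000 bp. It was therefore lower inside introns than just outside them, but close to its level farther away. Of these 7 centres, 3 were also in a replicate 1 peak, namely elo-3, gln-3 and Y71F9al.12. The other 4 were the introns of egl-8, m01h9.1, spsb-1 and Y75B8a.8. Over the whole of the chromosomes 64.3% of the bases in a replicate 2 peak were also in a replicate 1 peak. Over the bases of the edited regions other than spsb-1 the value was 35.5%, from 3805 bases in a replicate 2 peak, and with spsb-1 it was 60.8%. The replicates therefore differed inside edited regions at a small number of loci.

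Of the 6 introns with a replicate 2 peak, gln-3 lay wholly within a replicate 1 peak and spsb-1 had 5565 of 8009 bp in such peaks. In the other 4 the replicate 1 peaks lay beside the region or near its ends. In m01h9.1 a single replicate 2 peak of 13219 bp and score 3100 ran across the whole 913 bp region. Replicate 1 had a peak ending 18 bp inside the left edge, of score 86.9, and another beginning 211 bp before the right edge, of score 126, with nothing between them. In egl-8, on chromosome V from 31940 to 33462 with 124 positions, replicate 2 peaks of scores 1181 and 76.2 covered 1386 of the 1523 bp. The nearest replicate 1 peak, of score 242, stopped 21 bp short of the region. The Y75B8a.8 intron, which was chosen after its values were seen, spans chromosome III from 12161558 to 12164238. It held a replicate 2 peak of 332 bp and score 60.4, and replicate 1 peaks of scores 362 and 1592 stood 242 bp to its left and 711 bp to its right. The daf-16 intron, 310 bp on chromosome I from 10774363 to 10774672 with 30 positions, met a replicate 2 peak of score 53.7 by 53 bp. Replicate 1 peaks lay 12 bp to its right (score 53.6) and 676 bp to its left (score 3100). The study's figure of editing in this intron gives a wider span, which extends beyond both listed ends. It takes in the whole of that replicate 2 peak and the start of the replicate 1 peak on the right. The daf-16 overlaps given here thus hold for the listed ends only.

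**Figure D3:**
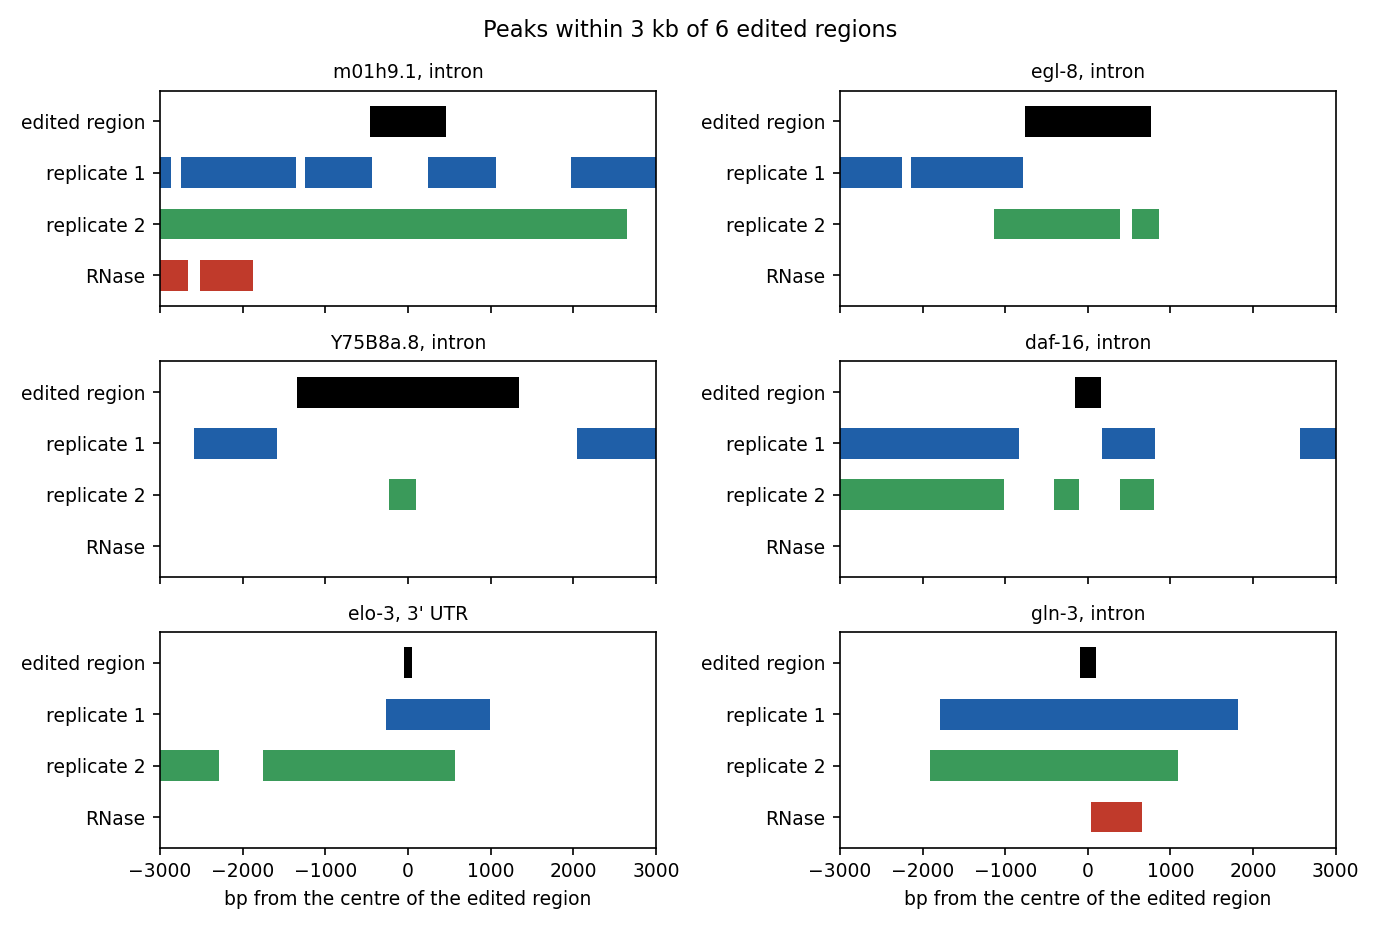
Peaks within 3000 bp of the centres of 6 edited regions (x axis, bp from the centre of the region). Black bars are the edited regions as listed, and blue, green and red bars are the peaks of replicate 1, replicate 2 and the RNase control. In the m01h9.1, egl-8, Y75B8a.8 and daf-16 introns the replicate 1 peaks lie outside the region or, in m01h9.1, reach 18 and 211 bp into it (in egl-8 there is none on the right within 1000 bp), and in elo-3 and gln-3 peaks of both replicates cover the region.

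Other regions that the study uses as examples of editing, or that hold the most positions, fell on both sides. In the lem-2 gene, which encodes a nuclear envelope protein with a LEM domain, the edited intron on chromosome II from 14064764 to 14065370 (112 positions) had 443 of 607 bp in replicate 1 peaks of scores 2085 and 315. The lem-2 3' UTR region, 2174 bp with 101 positions from 14065955 to 14068128, had only 109 bp in a peak, at its end towards the intron. The intron of gly-5, a glycosyltransferase gene, has 196 positions from 13198685 to 13199855 on chromosome III and lay 516 bp from the nearest replicate 1 peak. The study also shows gly-5 with TDP-1 ChIP-seq tracks and marked peaks, whose coordinates its legend does not give. Where those peaks lie relative to this region was not tested. The intron of haf-6, which encodes a half-molecule ABC transporter, has 121 positions from 1171412 to 1173491 on chromosome I and lay 3228 bp away. Among the 74 regions with no peak of any set, the most positions were found in the w07g4.3 3' UTR (447 positions, 4913 bp from a replicate 1 peak), the intron of acr-18, an acetylcholine receptor subunit gene (431 positions, 156 bp), the f48e8.4 3' UTR (412, 818 bp), the C35E7.6 3' UTR (333, 812 bp) and the W03D2.6 5' UTR (310, 2578 bp). Many positions were thus listed in regions without a peak on them, and in 3 of these 5 a peak lay within 1000 bp.

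By kind of region, replicate 1 peaks met 35 of 83 introns (42.2%, 32.1 to 52.9%), against 35.1% of placements on the chromosome and 42.8% within 50 kb. They met 24 of 45 3' UTRs (53.3%, 39.1 to 67.1%), against 32.6% and 40.0%. The 3' UTR share was above the chromosome share beyond its interval, and the local share lay just inside the interval. Mixed regions met a peak in 5 of 9 cases. By number of positions the counts were 14 of 34 with under 50 (41.2%, local placements 34.1%), 16 of 36 with 50 to 99 (44.4%, local 40.2%) and 38 of 75 with 100 or more (50.7%, local 46.8%). The rise with the number of positions was matched by placements, because regions with more positions are longer. By length the order turned. Among the 49 shortest regions 24 met a peak (49.0%, 35.6 to 62.5%) against 33.1% of local placements, and among the 49 longest 22 did (44.9%, 31.9 to 58.7%) against 53.0%.

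The 6 5' UTR regions and 3 other regions were too few to compare. Among the 5' UTRs a replicate 1 peak met unc-43, described above, and lec-1, a galectin gene, where peaks of scores 447 and 1193 covered 98 of 1083 bp, reaching in from either end. The other 4, in Y37E3.17, Y49E10.28, K06A5.1 and W03D2.6, lay 957 to 6503 bp from one. All 3 other regions met one. They are rncs-1, a noncoding RNA with a long double-stranded stem, whose 634 bp with 147 positions lay wholly within a peak of score 891, a region of a histone cluster on chromosome V of which 57 of 994 bp were covered from both ends by peaks of scores 2769 and 2681, and F45D11.2 with 138 of 755 bp.

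**Figure D4:**
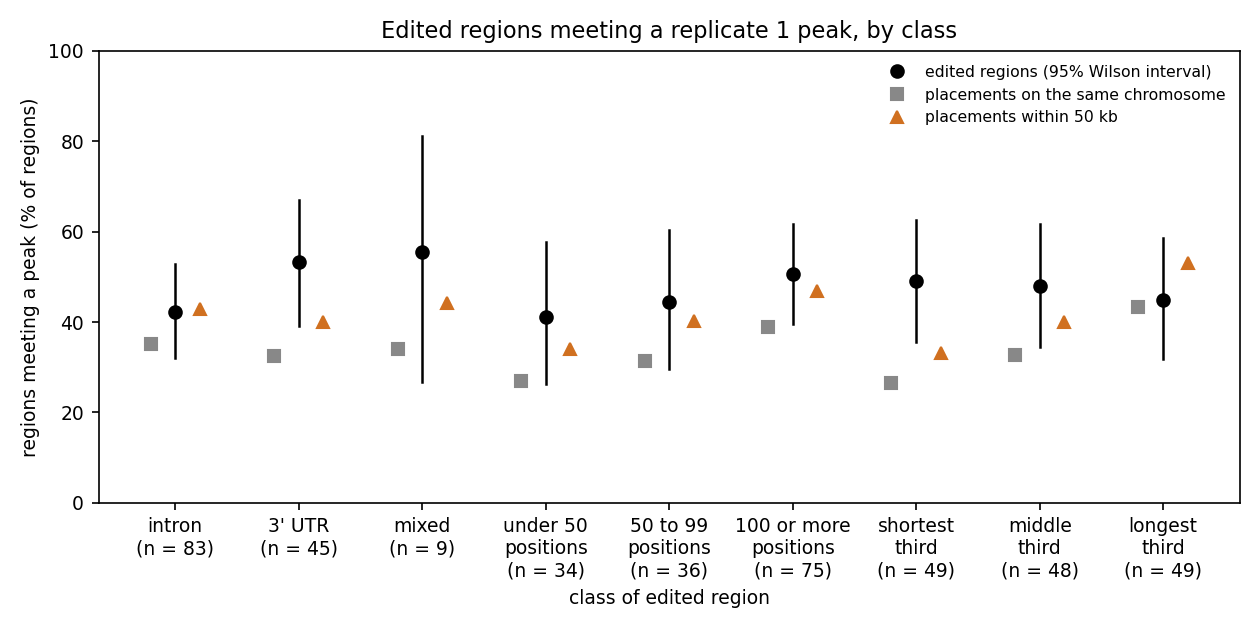
Share of edited regions of at most 20 kb that met a replicate 1 peak by at least 1 bp (y axis, percent; dots with 95% Wilson intervals) by kind, number of potentially edited positions and length (3 classes of about equal size), beside placements on the same chromosome (squares) and within 50 kb (triangles). The 3' UTRs (53.3%) and the shortest regions (49.0%) lie above their local placements, and the longest regions (44.9%) lie below them.

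Just inside the 1 bp limit for replicate 1 were an intron of Y37E3.10 with 8 bp of overlap and the intron of Y111B2A.12 with 12 bp. Just outside it, by the listed ends, were a second intron of the same gene, given as y37e3.10, with a gap of 5 bp and daf-16 with 12 bp. Replicate 1 peaks that met an edited region had a median score of 283 over 78 peaks, against 192 over all replicate 1 peaks, and 61.5% of them were above the median of the file. The score is that of the peak caller, MACS, and is higher for a smaller p-value. The peaks on regions were also slightly longer, at a median of 1025.5 bp against 969 bp, and the part of length in the difference was not tested. Regions with a replicate 1 peak had a median of 117 positions (n = 69 regions, 68 of them with a number) and those without had 95 (n = 77). Their ranges overlapped almost fully at 7 to 415 and 7 to 447.

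The J2-IP gave a readout of the same genes that the choice of regions did not use. Its values are per gene, not per region, and had been normalized to input before deposition. The gene tdp-1 itself gave 27, 27 and 25 in the wild-type J2-IP libraries, and the libraries labelled tdp-1(ok803) gave 53, 61 and 50. Its input values were 38 and 12. The input level was thus lower under the tdp-1(ok803) label and the input-normalized J2-IP value higher. Multiplying the latter by the ratio of the tdp-1(ok803) to the wild-type input, which undoes a division by input, gave 17.7, 20.3 and 16.7, below wild type. Gene totals do not tell where in the gene the reads lie. Genes were tested with limma on log2(value + 1) with Benjamini-Hochberg adjustment, and called at p under 0.05 and adjusted p under 0.1. Each genotype has 1 input library. An error in its values would be shared by all J2-IP libraries of that genotype, and the limma standard errors and p-values do not cover it. Of 3966 genes tested, 50.9% were called, 42.7% as higher and 8.12% as lower in tdp-1(ok803). The median log2 fold change over all of them was 0.22.

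Of the 114 genes with an edited region in the table, 99 passed the filter on enrichment over input and were tested. Of these, 29 were called, 20 of them higher and 9 lower, and the median log2 fold change over all 99 was 0.03. A gene could pass the filter through 1 genotype alone, so the filter partly set the counts in each direction. With no filter on enrichment, 23 of 111 edited genes were called higher (20.7%), against 44.4% of 8510 genes. Among genes whose region met a replicate 1 peak, 11 of 45 were called higher and 4 lower (median 0.00), and among the other genes 9 of 54 were called higher and 5 lower (median 0.03). Without wild-type replicate 2 the calls among genes with a replicate 1 peak fell from 15 to 9. Whether the groups differ was not tested. Both shares called higher were below the 42.7% of all genes tested. The sign of these medians depends on scaling. Quantile normalization of the 6 libraries moved the median of all genes from 0.22 to -0.02 and those of the genes with and without a replicate 1 peak to -0.22 and -0.21, with 3 called higher and 22 lower, and 2 higher and 25 lower. Multiplying the tdp-1(ok803) values by the ratio of the inputs, as for tdp-1, moved the 3 medians to -0.04, -0.15 and -0.14. Under all 3 scalings both groups of edited genes lay below the median of all genes and within 0.05 of each other on the log2 scale.

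All 4 genes with a shared peak were tested, and 2 were called. In wild type the J2-IP value of elo-3 was 103, 107 and 105, and the libraries labelled tdp-1(ok803) had 130, 122 and 138. The log2 fold change was 0.30 (standard error 0.06, adjusted p = 0.011 from limma). This was close to the shift of all genes. It was 0.03 after quantile normalization and not called, and -0.31 and called lower after scaling by the input ratio. Wild-type libraries had values of 369, 388 and 431 for spsb-1, and those labelled tdp-1(ok803) had 301, 346 and 362. Its log2 fold change was -0.24 (standard error 0.09, adjusted p = 0.087 from limma), it was called lower under both other scalings, at -0.52 and -0.42, and it lost its call when any 1 of 5 libraries was left out (wild-type replicate 1, 2 or 3, or tdp-1(ok803) replicate 1 or 2, with log2 fold changes of -0.29, -0.25, -0.17, -0.16 and -0.26). M01H9.3, the sequence name listed for the m01h9.1 region, and Y71F9AL.12 were not called, at 0.11 (standard error 0.09) and -0.14 (standard error 0.12).

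Among regions named above without a shared peak, the genes given next were chosen after their J2-IP values were seen. The values of haf-6 rose from 61, 58 and 68 in wild type to 98, 138 and 128 in libraries labelled tdp-1(ok803) (log2 fold change 0.94, standard error 0.14, adjusted p = 0.0043 from limma), with inputs of 26 and 11. Scaling by the input ratio turned this to -0.22, which was not called. Those of acr-18 fell from 21, 22 and 31 to 9, 11 and 7 (-1.36, standard error 0.21, adjusted p = 0.0048 from limma), while its single input values were 16 (wild type) and 43 (tdp-1(ok803)). With the input ratio the value was -0.08 and no longer called. The filter on enrichment let acr-18 in only through wild type (mean 24.7, against 9 in tdp-1(ok803)). Without wild-type replicate 3 acr-18 was not tested. Those of rncs-1, whose region lay wholly in a replicate 1 peak, fell from 394, 447 and 522 to 280, 390 and 291 (-0.51, standard error 0.16, adjusted p = 0.046 from limma), with inputs of 22 and 29. Its call was lost with the input ratio (-0.13) and without wild-type replicate 2 (-0.52) or 3 (-0.40) or tdp-1(ok803) replicate 1 (-0.42) or 3 (-0.45). A call was common, at 50.9% of all 3966 genes tested. The daf-16, lem-2 and gly-5 genes were not called, with log2 fold changes of 0.12, -0.08 and 0.10, and those of daf-16 and gly-5 were below 0 under both other scalings. Without wild-type replicate 3 daf-16 was called higher (0.19), and lem-2 was called lower with quantile normalization (-0.44).

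**Figure D5:**
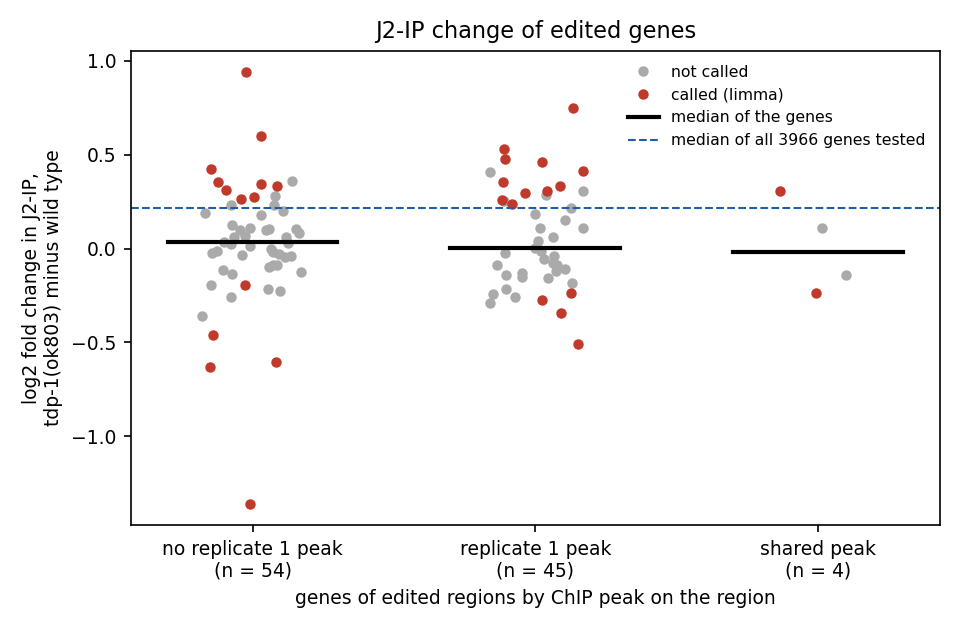
log2 fold change in the J2-IP, tdp-1(ok803) minus wild type (y axis), of the genes of edited regions without a replicate 1 peak (54), with one (45) and with a shared peak (4, also part of the 45). Each point is a gene (red, called by limma), black bars are medians of the genes, and the dashed line is the median of all 3966 genes tested, 0.22; the medians of the edited groups lie near 0 and below that line.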

How the data were processed

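The members, lists and tests were chosen with earlier results of these data known. For editing, the authors deposited a list of regions with, as a number of other kind, the potentially edited positions of each; its columns comparing genotypes (a change in percent edited, a fold and a p-value) were not used. For ChIP-seq, the authors aligned reads to WS220 with Bowtie, called peaks per library with MACS against the RNase-treated library (that library against total genomic sequence), and deposited the MACS score of each peak. The J2-IP values deposited per gene are a score: counts that were normalized, to input among other things, and then rounded. Input values are likewise a score whose normalization is not given in the sources used here. ChIP, J2-IP and editing depths are unknown.

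Regions met a peak with at least 1 bp in common. Backgrounds are exact shares over every placement of the same length on the same chromosome, or with the centre moved by up to 50 kb, and are descriptions with no test. Chromosome lengths were taken as the last base seen in any file. Overlap code was checked on simulated intervals and the limma script on simulated data with 200 changed genes. Wilson intervals (95%) cover counting error only. Python 3.11.15 and limma 3.58.1 in R 4.3.3 were used.

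J2-IP genes were joined to input through RefSeq locus tags (WBcel235, names only; 8612 of 8783 matched), and were tested where every library of at least 1 genotype was above 0 and its mean exceeded 1.5 times the wild-type input. The study describes the J2-IP replicates as separate lysates. Deviations of same-numbered libraries correlated at 0.37, 0.78 and 0.53 across genes, so a replicate block was tried. Other alternatives were minimum overlap, score, 1 region per gene, other pseudocounts, filters and scalings, and each library left out. Leaving out the 2 spans over 20 kb, local backgrounds by kind, region centres and the split by replicate 1 were added after seeing the data. So were the cover by distance from the region's edge and its values without spsb-1.

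Named regions are those with a shared peak, an RNase control peak or a place among the 5 nearest to a shared peak, the study's example genes (pqn-41, ppfr-1 and Y41E3.7 have no region with coordinates), the 5 with most positions and no peak, and every 5' UTR or other region. Poly(A) levels were not used, since levels differ between genes with length. No sequence is shown because no genome of this build was used here.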

Additional observations from a re-analysis of the deposited data

How the results depend on the processing

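Replicate 1 met 39.2% of the 148 regions by at least 100 bp (placements 32.5%) and 73.0% within 1000 bp (52.3%). Replicate 2 met 12.8% within 1000 bp (10.9%), and the RNase control 1.35% at a score of at least 100 (1.34%). That last share comes only from the 2 oversized spans, since RNase control peaks on the other regions had scores of at most 75.5. Shared peaks met 4.05% of the 148 regions. All replicate 2 peaks taken in their place met 6.76%, and all replicate 1 peaks 48.0%. Shared peaks lie within both sets, so their share could not exceed either value. Region centres in a replicate 1 peak (13.0%) kept their place below the chromosome share at a score of at least 100, with 1 region per gene and without any 1 chromosome (11.9 to 14.5%), while replicate 2 peaks gave 4.79%, above theirs. Peaks on regions had median scores of 177 (replicate 2) and 197 (RNase control) with the 2 oversized spans and 2312 and 70.7 without. The latter 2 values rest on 12 peaks, 4 of them on spsb-1, and on 2 peaks. Over all peaks of each set the medians were 199 and 118. In the J2-IP, 2017 genes were called (1695 higher, 322 lower), 4474 with no filter on enrichment, 1210 (406 higher, 804 lower) with the input ratio, 1895 (862 higher, 1033 lower) with quantile normalization, and 1642 to 2051 with a library left out. Genes with a shared peak called were 1 to 2 of 4 with a library left out, and those without one were 27, or 50 with quantile normalization and 20 to 27 with a library left out. With a replicate block 2017 genes, 2 with a shared peak and 28 without were called, and the block ended no call among the genes with a shared peak. The fold changes of elo-3 and haf-6 reversed to -0.31 and -0.22 with the input ratio. Both that setting and the main values, which were normalized to input, depend on 1 input library per genotype. Of 270 alternatives in all, 233 kept their side of the threshold, stayed within the counting interval or, for counts, within 1.5 times, and 2 turned a called direction. The causes of the other changes were not tested. Between 2 ChIP libraries of unequal peak number, and with depth unknown, overlaps of under about 7% rest on 10 regions or fewer.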
